A study of Mus musculus with 3 samples.

Results

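Emp1, Emp2, Emp3 and Pmp22 form the PMP22/EMP family of small tetraspan membrane proteins, and their transcripts were followed in ST2 cells, a stromal line from mouse bone marrow. The 4 genes were taken by name from a table of 51826 rows, and each name was found on 1 row. The family was chosen on measured values, since Emp1 was picked for its fall in both treated libraries, so its ratios to the control are a description and support nothing. There was 1 library in each of 3 groups. The control cells received empty vector with control siRNA, the NELL2 overexpression cells received the NELL2 expression construct with control siRNA, and the Fn1 knockdown cells received empty vector with siRNA against Fn1. All 3 were lipofected, with siRNA at 30 nM. The transfected ST2 cultures were not stated to be clones, the sequence of the Fn1 siRNA is not given in the sources used here, and no library carried both treatments. The comparisons asked which transcripts differ when NELL2, a secreted protein, is raised or when fibronectin 1, an extracellular matrix glycoprotein that binds it, is lowered.

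Proteins of this family cross the membrane as a bundle of helices, with both ends inside the cell and a glycosylated loop outside, and they belong to the same superfamily as the claudins of tight junctions. PMP22 is best known from the compact myelin of peripheral nerve, where too much or too little of it causes inherited neuropathy, but it was also found as a growth arrest-specific transcript of fibroblasts. EMP2 has been tied to the surface display of integrins and to focal adhesion kinase, and the EMP proteins and PMP22 have been reported to associate with the ATP receptor P2X7.

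Values were FPKM, fragments scaled to transcript length and to the mapped total, so that levels can be set side by side between genes as well as between libraries. Depth, estimated from the smallest values of the table, ran from 23000000 to 24200000 fragments per library. Nell2 was at 0.640 FPKM in the control, 326 FPKM in cells given the construct and 1.06 FPKM under Fn1 knockdown. Fn1 was at 2802, 2489 and 137 FPKM in the same order, so both targeted genes moved as labelled. The stromal label was checked against 12 markers, all of which reached 1 FPKM, led by Sparc, Col1a1 and Col1a2 at 2317, 1494 and 897 FPKM in the control. Of 12 epithelial markers only Krt19, a keratin, reached 1 FPKM in any library, with 2.19 FPKM in the control. Krt18 and Cldn4 followed at 0.203 and 0.0620 FPKM, and Epcam, a defining epithelial marker, was listed at 0 in all 3 libraries.

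The promoters of Emp1 and Pmp22 are shown because these were the members whose transcripts differed by 2-fold or more from the control. Each window runs from 250 bases before an annotated start to 50 bases into the gene, from RefSeq on GRCm38.p6, and all 4 members were matched there by symbol. Capitals mark matches on either strand to the AP-1 site TGAGTCA, to the GC box GGGCGG or to GGAATG, the core of TEAD sites. The lines give both annotated starts of Emp1 on the plus strand, chr6:135362681-135362980 and chr6:135367243-135367542, and the first 2 of the 4 annotated starts of Pmp22, also on the plus strand, chr11:63128732-63129031 and chr11:63131207-63131506.
Emp1, first start: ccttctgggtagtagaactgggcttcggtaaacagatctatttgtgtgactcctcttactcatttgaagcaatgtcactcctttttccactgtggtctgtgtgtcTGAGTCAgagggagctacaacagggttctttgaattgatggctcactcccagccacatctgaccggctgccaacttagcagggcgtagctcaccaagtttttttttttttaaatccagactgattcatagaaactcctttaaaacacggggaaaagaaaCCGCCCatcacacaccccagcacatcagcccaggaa
Emp1, second start: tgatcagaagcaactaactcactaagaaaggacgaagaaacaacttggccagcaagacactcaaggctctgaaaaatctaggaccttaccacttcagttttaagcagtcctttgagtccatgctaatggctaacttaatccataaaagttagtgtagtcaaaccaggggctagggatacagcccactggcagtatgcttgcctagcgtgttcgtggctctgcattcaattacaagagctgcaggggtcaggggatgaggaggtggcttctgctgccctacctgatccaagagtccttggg
Pmp22, first start: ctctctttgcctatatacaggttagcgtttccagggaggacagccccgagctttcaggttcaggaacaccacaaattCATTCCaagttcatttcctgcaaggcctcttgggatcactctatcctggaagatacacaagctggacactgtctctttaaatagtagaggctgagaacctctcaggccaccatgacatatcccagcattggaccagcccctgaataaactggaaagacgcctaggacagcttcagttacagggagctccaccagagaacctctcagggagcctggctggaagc
Pmp22, second start: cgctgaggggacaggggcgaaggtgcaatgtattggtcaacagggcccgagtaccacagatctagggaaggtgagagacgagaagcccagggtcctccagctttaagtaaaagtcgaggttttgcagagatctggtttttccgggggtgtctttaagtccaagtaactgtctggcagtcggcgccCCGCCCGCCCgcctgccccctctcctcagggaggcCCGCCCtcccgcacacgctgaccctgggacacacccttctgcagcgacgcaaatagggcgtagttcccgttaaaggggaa

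The first Emp1 window held 1 AP-1 match, beginning at position -145 from the start, and AP-1 matches occurred in 5.20% of all 32851 promoter windows of this length. It also held 1 GC box at position 14, on the minus strand. The second Emp1 window held no match to any of the 7 motifs searched, which also included TGACGTCA (the cAMP response element), TATAAA (the TATA box), CACGTG (an E-box) and the CArG box of serum response factor. The first Pmp22 window held 1 TEAD match at position -173, on the minus strand, a motif found in 14.7% of all windows. The second held 3 GC boxes on the minus strand, 2 of them overlapping, and GC boxes were found in 35.7% of all windows. Of the other Pmp22 windows, which overlap each other and are not shown, that of the third start held no match and that of the fourth held 3 GC boxes, 2 of them overlapping. Among the members not shown, the Emp2 window held GC boxes at positions -163, -31, 1 and 29. An Emp3 window held a TATA box at position -40. GC content was 46.7% and 48.0% in the Emp1 windows and between 50.7% and 72.3% in the 4 windows of Pmp22. The table has 1 value per gene, so transcripts from different starts cannot be told apart.

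Emp1 (ENSMUSG00000030208.15, GRCm38 chromosome 6, 135362545 to 135383173, plus strand) encodes epithelial membrane protein 1. Its level was 191 FPKM in the control library, 59.5 FPKM under NELL2 overexpression and 31.8 FPKM under Fn1 knockdown. The control stood far above both treated libraries, and the Fn1 knockdown library was the lowest. In the control, Emp1 was the 286th highest row of the table, and it stood at rank 1130 under NELL2 overexpression and rank 2295 under Fn1 knockdown.

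**Figure D1:**
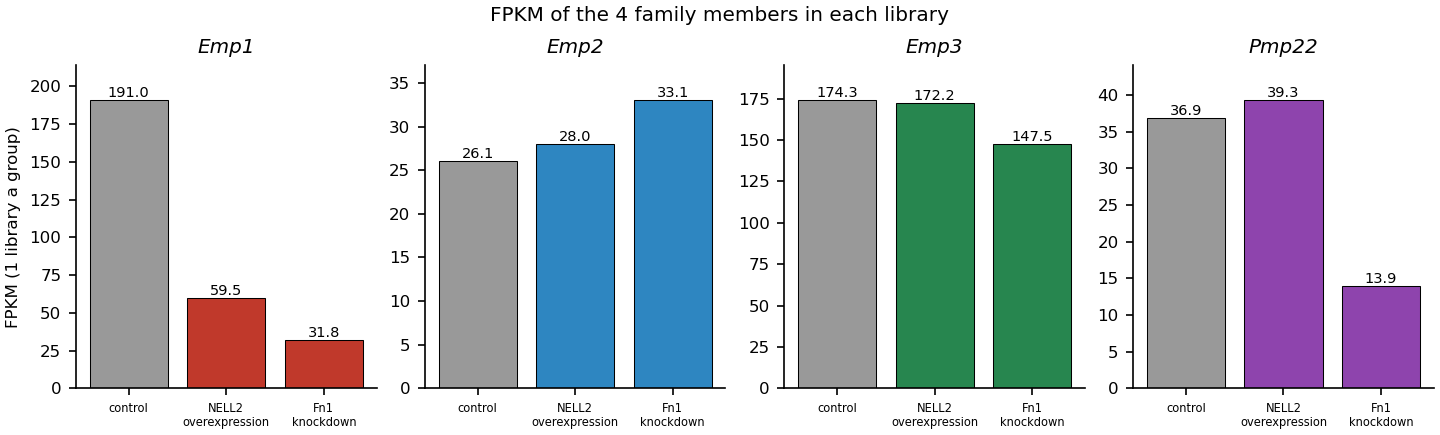
Bars give FPKM of each gene in control, NELL2-transfected and Fn1-silenced cells, 1 library each with no error bar, on a scale of its own for each gene. Emp1 goes from 191 to 59.5 and 31.8 FPKM, Pmp22 is low only in the Fn1 knockdown library at 13.9 FPKM, and Emp2 and Emp3 differ by less than 2-fold.

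A gene was called when its log2 ratio of FPKM + 1 was 1 or more in size, which is 2-fold on this scale, and when it reached 1 FPKM in either library. With NELL2 overexpression Emp1 was at 31.2% of the control, a log2 ratio of -1.67. It was the only member of the 4 called in this comparison, in which 0.652% of 12572 genes were called and 0.278% were called lower. Since the choice of Emp1 used this contrast, nothing is read from that count. After Fn1 knockdown Emp1 was at 16.6% of the control, a log2 ratio of -2.55, a fall that also served to choose it. With about 12116, 3900 and 2120 estimated fragments in the 3 libraries, the 95% exact (Clopper-Pearson) interval was 30.1% to 32.3% of the control for NELL2 overexpression and 15.9% to 17.4% for Fn1 knockdown. These intervals, and those below, cover counting error only and treat each fragment as an independent molecule. Because there is 1 library a group, no difference has a replicate check.

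Pmp22 (ENSMUSG00000018217.12, chromosome 11, 63128982 to 63159547, plus strand), which encodes peripheral myelin protein 22, was at 36.9 FPKM in the control, 39.3 FPKM under NELL2 overexpression and 13.9 FPKM under Fn1 knockdown. The first 2 libraries lay close together and the Fn1 knockdown library stood below both. The log2 ratio was 0.09 under NELL2 overexpression, and the interval of 98.1% to 116% of the control included equality. After Fn1 knockdown the transcript fell to 37.8% of the control (interval 33.7% to 42.3%), with a log2 ratio of -1.34. This was the 25th lowest ratio of the 12574 genes tested. Pmp22 and Emp1 were thus the 2 members called under Fn1 knockdown, where 1.23% of all genes were called and 0.549% were called lower.

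**Figure D2:**
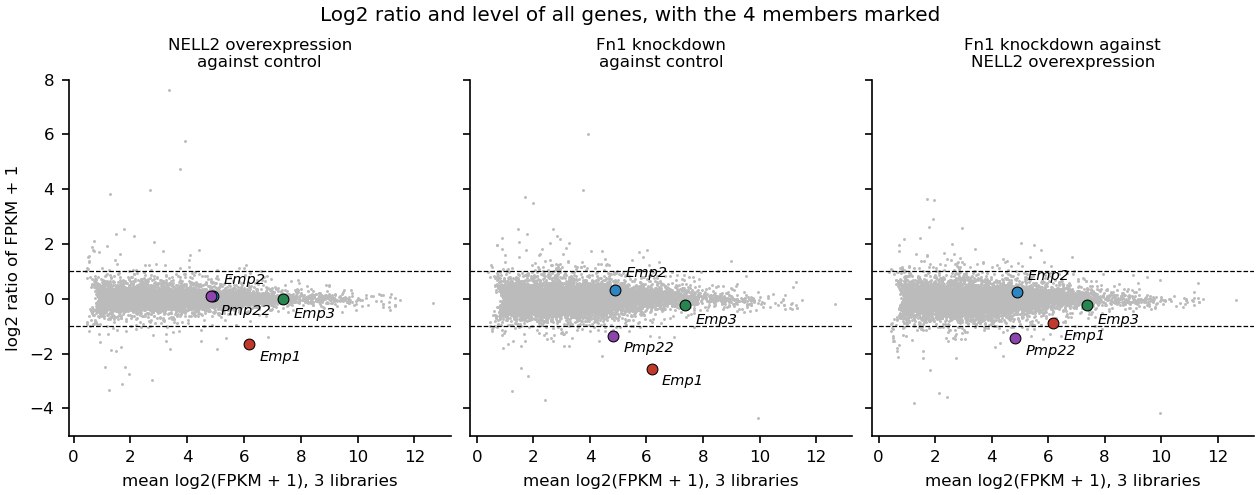
Each grey point is a gene at 1 FPKM or more in either library of the comparison, placed by its mean log2(FPKM + 1) over the 3 libraries and its log2 ratio, with dashed lines at 2-fold and the 4 members in colour. Emp1 lies below the lower line in both comparisons with the control (-1.67 and -2.55), Pmp22 lies below it in both comparisons of Fn1 knockdown (-1.34 and -1.43) and is drawn over Emp2 in the first panel.

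Emp3 (ENSMUSG00000040212.12, chromosome 7, 45918023 to 45921404, minus strand), which encodes epithelial membrane protein 3, had 174 FPKM in the control, 172 FPKM under NELL2 overexpression and 148 FPKM under Fn1 knockdown. It was almost as abundant as Emp1 in the control and was not called in any comparison. The log2 ratio was -0.02 under NELL2 overexpression, where the interval of 93.7% to 104% of the control included equality. It was -0.24 under Fn1 knockdown, at 84.7% of the control (80.1% to 89.5%), and 17.5% of the genes tested had a lower ratio. The difference after knockdown therefore exceeded counting error but lay among those of many other genes.

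Emp2 (ENSMUSG00000022505.9, chromosome 16, 10281749 to 10313968, minus strand), which encodes the member tied to integrin display, had 26.1 FPKM in the control, 28.0 FPKM under NELL2 overexpression and 33.1 FPKM under Fn1 knockdown. The Fn1 knockdown library held the highest level, in contrast to the other 3 members, for which it held the lowest. The log2 ratios were 0.10 and 0.33, or 107% (101% to 114%) and 127% (120% to 134%) of the control. Neither passed 2-fold, and 9.58% of genes had a higher ratio under Fn1 knockdown. No annotated gene overlaps any of the 4 members on either strand, so their values are not divided with an overlapping gene of this annotation.

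The order of levels in the control was Emp1, Emp3, Pmp22 and Emp2. With NELL2 overexpression it was Emp3, Emp1, Pmp22 and Emp2, and under Fn1 knockdown Emp3, Emp2, Emp1 and Pmp22, where Emp2 and Emp1 were nearly level at 33.1 and 31.8 FPKM. The spread between cultures is not known, so no neighbours in these orders can be said to differ beyond it. The summed level of the 4 genes was 428 FPKM in the control, 299 FPKM under NELL2 overexpression (69.8% of the control) and 226 FPKM under Fn1 knockdown (52.8%). Without Emp1 the sum was at 101% and 82.0% of the control. Emp1 made up 44.6% of the summed FPKM in the control, 19.9% under NELL2 overexpression and 14.0% under Fn1 knockdown, whereas the share of Emp3 was 40.7%, 57.6% and 65.2%. The level of Emp1 was 1.10 times that of Emp3 in the control, 0.346 times under NELL2 overexpression and 0.215 times under Fn1 knockdown. Pmp22 was at 1.42 and 1.41 times the level of Emp2 in the first 2 libraries and at 0.422 times under Fn1 knockdown.

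**Figure D3:**
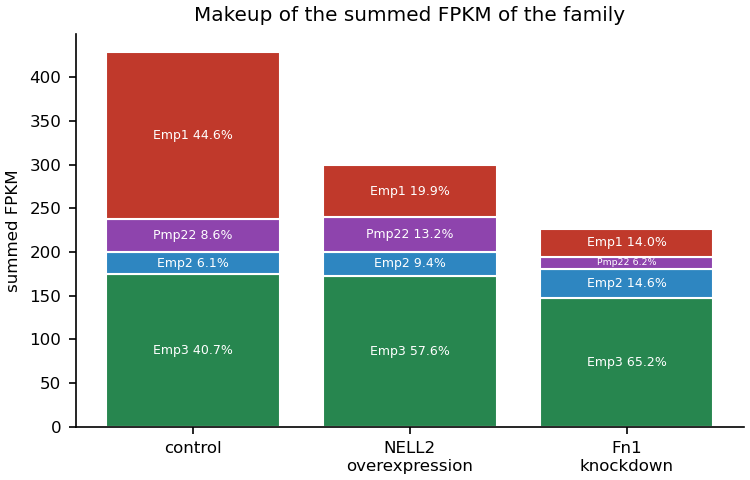
Stacked bars give the summed FPKM of the 4 genes in each library, with the percentage of the sum held by each gene. The sum goes from 428 to 299 and 226 FPKM, and Emp1 goes from 44.6% of it to 19.9% and 14.0%.

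The treated libraries were then compared with each other, which leaves out the control they share. Pmp22 fell to 35.4% of its NELL2 overexpression level in the Fn1 knockdown library (interval 31.6% to 39.6%), a log2 ratio of -1.43, and was the only member of the 4 called. In this comparison 1.29% of 12596 genes were called and 0.659% were called lower. Emp1 was at 53.4% (50.6% to 56.3%), with a log2 ratio of -0.89 that did not pass 2-fold, and 0.953% of genes had a lower ratio. Emp2 and Emp3 had log2 ratios of 0.23 and -0.22. Pmp22 was thus lowest in the Fn1 knockdown library, as its levels given above already showed. This comparison reuses the same Fn1 knockdown library and is no separate support.

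Related proteins were examined next. Of 26 other members of the PMP22/claudin superfamily outside the claudins themselves, 5 reached 1 FPKM. None of the 5 was called in any comparison, which is too few genes to read against the 0.652% to 1.29% of all genes called. The highest was Lhfp, named as a fusion partner in lipoma, at 147, 151 and 132 FPKM in control, NELL2-transfected and Fn1-silenced cells. Perp, a desmosomal protein and target of p53, followed at 20.9, 21.2 and 21.9 FPKM, and Lhfpl2 at 19.7, 20.1 and 20.0 FPKM. The median log2 ratio of the 5 genes was 0.018 under NELL2 overexpression and -0.16 under Fn1 knockdown, against medians of 0.0072 and -0.0028 over all genes tested. Of 22 claudins, Cldn12 alone reached 1 FPKM, at 12.0, 12.7 and 11.6 FPKM, and in the control Cldn1 and Cldn20 came next at 0.433 and 0.274 FPKM. Claudin transcripts were therefore scarce in these cells, while those of Emp1 and Emp3 ranked 286th and 331st of all rows in the control.

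The tetraspanins are a separate family of tetraspan proteins that gather integrins and other receptors in the membrane. Of 31 genes, 20 were tested for NELL2 overexpression and 21 for Fn1 knockdown. None was called, against 0.652% and 1.23% of all genes, and with so few genes nothing is read from this. The most abundant, Cd63, Cd81 and Cd9, were at 574, 245 and 159 FPKM in the control and at 570, 257 and 147 FPKM under Fn1 knockdown. The list had a median log2 ratio of -0.0087 under NELL2 overexpression and -0.065 under Fn1 knockdown. Tspan15, which directs the protease ADAM10, was at 0.706 FPKM in the control and 2.38 FPKM under Fn1 knockdown. The pseudocount of 1 lowers the ratio of genes at such levels, and its log2 ratio of FPKM + 1 was 0.99, just inside the cutoff, whereas it was called with a pseudocount of 0.1.

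**Figure D4:**
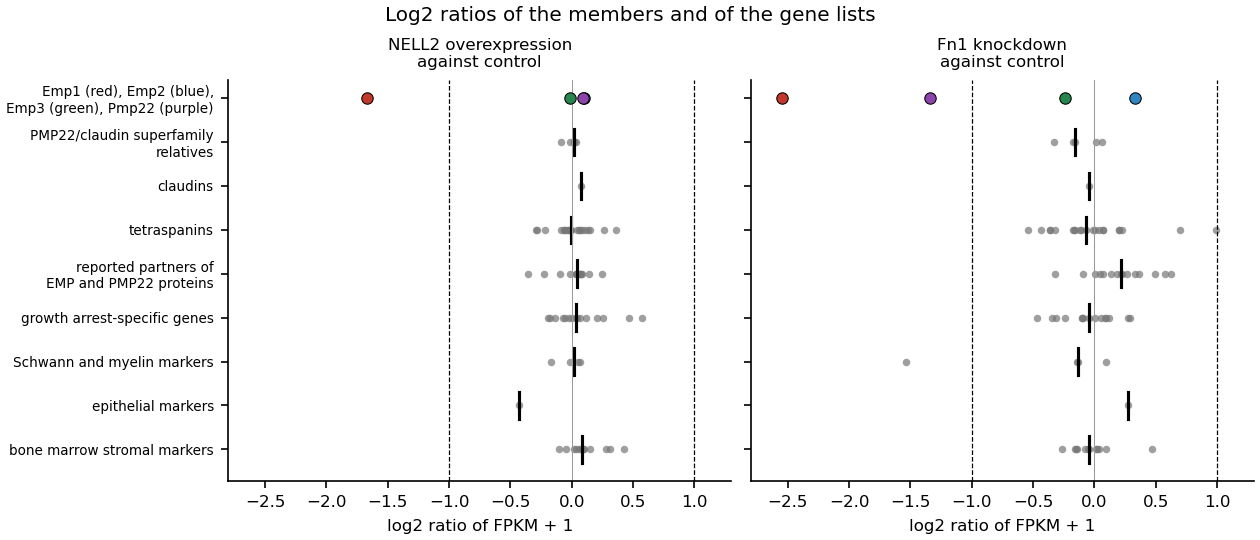
Points give the log2 ratio of FPKM + 1 to the control for the 4 members (coloured) and for genes of each list at 1 FPKM or more, with a black bar at each list's median and dashed lines at 2-fold. Past the lines are Emp1 in both panels and Pmp22 and S100b under Fn1 knockdown.

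Of 19 genes whose proteins have been reported as partners of EMP proteins or PMP22, 15 reached 1 FPKM and none was called. After Fn1 knockdown the ratio was above 0 for 13 of the 15, with a median of 0.22, and under NELL2 overexpression for 11 of 15, with a median of 0.043. Over all genes tested, 49.5% and 52.3% were above 0 in these comparisons, with medians of -0.0028 and 0.0072, and 1.23% and 0.652% were called. Nothing particular to the partners is read from these counts. Itgb1, the beta 1 integrin subunit, was at 497, 527 and 624 FPKM, Cd44, a hyaluronan receptor, at 340, 356 and 357 FPKM, and Canx, the chaperone calnexin that binds newly made PMP22, at 197, 203 and 230 FPKM. Itgav, the alpha v integrin subunit, had the highest ratio of the list under Fn1 knockdown, 0.63 on the log2 scale. Ptk2, which encodes focal adhesion kinase, was at 24.4, 25.2 and 27.9 FPKM. P2rx7 and Itgb4 stayed below 1 FPKM in every library, at up to 0.917 and 0.320 FPKM.

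Because Pmp22 was also isolated as a growth arrest-specific gene, 15 such genes and growth arrest regulators were listed. All reached 1 FPKM and none was called. The list was too short to be read against the 0.652% and 1.23% of all genes called under NELL2 overexpression and Fn1 knockdown. Cdkn1a, an inhibitor of cyclin-dependent kinases, was at 372, 367 and 396 FPKM, Gadd45g, a stress response gene, at 99.1, 104 and 92.7 FPKM, and Gas5, a noncoding host of small nucleolar RNAs, at 84.5, 77.0 and 78.9 FPKM. The median log2 ratio was 0.039 under NELL2 overexpression and -0.044 under Fn1 knockdown. In the latter 8 of 15 genes were below 0, against 50.5% of all genes tested.

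Pmp22 is also a marker of myelinating Schwann cells, so 9 markers of such cells were examined beside it. Their summed level was 21.7, 20.7 and 15.0 FPKM in control, NELL2-transfected and Fn1-silenced cells. The lower sum under Fn1 knockdown lay mostly in S100b, given below. Mag, Mog and Sox10, markers that define such cells, stayed at or below 0.240 FPKM in every library. Of the 9 markers, 4 reached 1 FPKM, and these were S100b, Cnp, Mbp and Prx. S100b, a calcium-binding protein also made by other cell types, fell from 8.69 FPKM in the control to 2.35 FPKM under Fn1 knockdown, a log2 ratio of -1.53, and was at 7.61 FPKM under NELL2 overexpression. Cnp was at 7.43, 7.86 and 8.02 FPKM and Mbp at 3.17, 3.13 and 2.79 FPKM. S100b was the only marker called under Fn1 knockdown, where 1.23% of all genes were called. None was called under NELL2 overexpression, against 0.652% of all genes. With 4 genes tested, nothing is read from these counts. The log2 ratios of Cnp, Mbp and Prx under Fn1 knockdown were 0.098, -0.14 and -0.13. The part of these markers in the Pmp22 result was not tested. In bulk RNA, fewer cells of a type and less RNA per cell cannot be told apart.

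Genes with a pattern like that of Emp1 were sought among the other genes at 10 FPKM or more in the control, by the Euclidean distance between their pairs of log2 ratios to the control, which are 2 values from 3 libraries sharing 1 control. The nearest was Vma21, an assembly factor of the vacuolar ATPase, at 19.2, 5.90 and 5.20 FPKM in control, NELL2-transfected and Fn1-silenced cells, at a distance of 0.854. Arhgap11a, a GTPase-activating protein, followed at 14.4, 7.45 and 3.67 FPKM, at a distance of 1.15. Tmem70, an assembly factor of mitochondrial ATP synthase, was at 21.1, 8.81 and 9.25 FPKM, Bcl2l2, a survival factor of the BCL2 family whose exons overlap Gm20521, at 15.4, 5.72 and 7.16 FPKM, and Sirpa, the receptor of CD47, at 15.1, 10.3 and 5.06 FPKM. Their distances were 1.52, 1.59 and 1.62. The choice by distance from Emp1 favours genes below the control in both treated libraries. The control levels of these 5 ran from 14.4 to 21.1 FPKM against 191 FPKM for Emp1.

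The coding genes within 500 kb of each member were examined for a shared regional difference. Around Emp1, 8 of 11 reached 1 FPKM, and none passed 2-fold in either comparison with the control, where 0.652% and 1.23% of all genes did. Their log2 ratios ran from -0.14 to 0.57 under NELL2 overexpression and from -0.35 to 0.23 under Fn1 knockdown. The nearest expressed one, Pbp2, lies 52.1 kb away, with 1.33 FPKM in the control and 0.825 FPKM under Fn1 knockdown. The highest ratio under NELL2 overexpression was that of Cdkn1b, an inhibitor of cyclin-dependent kinases, at 11.9, 18.1 and 9.35 FPKM. Around Pmp22, 6 of 10 reached 1 FPKM, with log2 ratios from -0.19 to 0.23 and from -0.23 to 0.062, and none passed 2-fold. None of the 6 expressed neighbours of Emp2 or the 19 of Emp3 did either. At the shares over all genes, counts of 0 among so few neighbours are not a result about these regions.

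**Figure D5:**
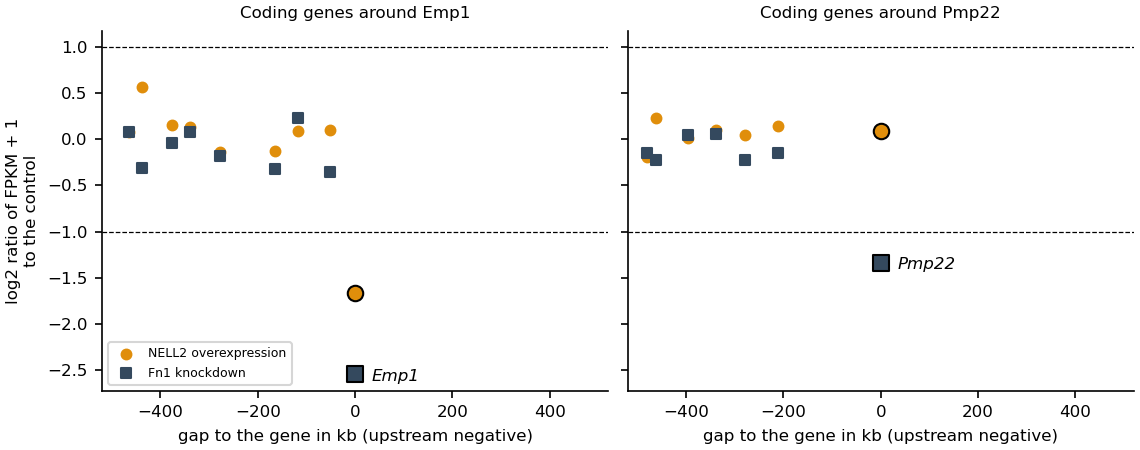
Log2 ratio of FPKM + 1 to the control for coding genes at 1 FPKM or more within 500 kb of Emp1 (left) and Pmp22 (right), by the gap in kb to the gene, upstream negative, with orange circles for NELL2 overexpression, dark squares for Fn1 knockdown, outlined symbols for the member itself and dashed lines at 2-fold. The neighbours lie between -0.35 and 0.57, while Emp1 is at -1.67 and -2.55 and Pmp22 at 0.09 and -1.34.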

How the data were processed

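Paired-end reads of polyadenylated RNA came from 1 library for each of 3 groups of ST2 cells. The authors mapped them with HISAT2 (build GRCm38 per the processing notes) and deposited FPKM per gene name. The FPKM program, annotation, versions and strand use are not given in the sources used here. DESeq, which the submitters name for normalization, was not run here, and whether it shaped the deposited FPKM is not known. Log2 ratios of FPKM + 1 were set against a 2-fold cutoff over all genes that reached 1 FPKM in either library, without a test, and they understate changes of low genes. Of the 51826 rows, 187 shared a name. Positions and lengths are from GENCODE M21 (GRCm38), where 91.7% of rows had a unique name match. Depth was read from the worth of 1 fragment in low values of genes with a single transcript. Only 21.8% to 22.2% of those values came within 0.02 of whole fragments, so fragment numbers, based on median coding transcript length, are approximate.

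Named were the members, Nell2 and Fn1, called list genes, the 3 most abundant genes of each of 8 lists, and the 5 genes nearest to Emp1. Tspan15, Itgav, Ptk2, P2rx7, Itgb4, Mag, Mog, Sox10, Prx, Epcam, Pbp2 and Cdkn1b were named after their values were seen. Single values of some list genes are not reported here. The members and lists were chosen with earlier results of these data known. The call step was checked on simulated data. Python 3.11.15, pandas 2.3.3, numpy 2.4.6, scipy 1.17.1 and matplotlib 3.10.9 were used.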

Additional observations from a re-analysis of the deposited data

How the results depend on the processing

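For the 4 members, all 72 log2 ratios under other settings (pseudocounts of 0.1 and 5, TPM, median-of-ratios and upper-quartile scaling, and estimated fragments, the last chosen after seeing the data) kept their direction and their side of 2-fold. Emp1 ranged from -1.68 to -1.60 under NELL2 overexpression and from -2.59 to -2.41 under Fn1 knockdown, Pmp22 from -1.41 to -1.15 under Fn1 knockdown, Emp3 from -0.030 to -0.017 under NELL2 overexpression, and Emp1 from -0.91 to -0.81 between the treated libraries. Factors for median-of-ratios and upper-quartile scaling lay between 0.992 and 1.01, so these settings change little. The estimated fragments were derived from the FPKM, so that setting repeats the FPKM ratio without a pseudocount and is no separate check.

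Counts over all genes moved with the cutoff and with low values. The main counts were 82 for NELL2 overexpression, 155 for Fn1 knockdown and 162 between the treated libraries, and the others follow in that order. With a pseudocount of 0.1 they were 178, 358 and 353, with a pseudocount of 5 they were 26, 50 and 46, and in TPM, on whose larger scale a pseudocount and filter of 1 weigh less, they were 210, 343 and 373. The cutoff of 1.5-fold returned 325, 784 and 806 genes, and that of 4-fold 16, 22 and 19. For NELL2 overexpression there were 47 at 5 FPKM in either library and, in a setting chosen after seeing the data, 44 without genes sharing exons with another gene of the same strand. Fn1 knockdown calls, 86 higher and 69 lower, became 367 and 417 at the 1.5-fold cutoff. In the lists, a pseudocount of 0.1 added 1 call among tetraspanins under Fn1 knockdown, and 1 each among tetraspanins, reported partners and epithelial markers between the treated libraries. No paired analysis was possible because there was a single library per group, and none could be left out.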
